A study of Cyprinus carpio 'koi' with 9 samples.

Results

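The 21 features described here are assembled genes whose level was highest in the red skin of Koi carp (common carp bred for ornamental color), out of 446614 assembled genes in the deposited tables. They were chosen from the measured values by a rule. The TPM of each feature (the share of transcripts in a library, corrected for effective length) was divided by the median TPM, in the same library, of the 29750 features with at least 10 expected counts in all 9 libraries, which gives a scaled level. A member had at least 10 expected counts in all 3 red libraries, and its scaled level plus 0.05 in each red library was at least 2 times that in the black and in the white library with the same number. Of 35480 features with enough counts in red, 23 met the rule, and 2 of them were left out and are not described. The members were found by their red levels, so those levels and every ratio of red to black or white skin are given as a description without support from a test.

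The libraries are poly(A) RNA-seq of red skin (RS), black skin (BS) and white skin (WS), 3 libraries of each color numbered 1 to 3. The skin came from 3 Koi carp of strain FFRC that carry red, black and white patches on one body, kept at 24 °C in tanks of 256 L, untreated apart from the anesthetic at sampling. Neither the age nor the sex of the fish is given in the labels, and a patch holds every cell type of skin, so more cells of a type and more RNA per cell cannot be told apart. Whether a shared number marks a shared fish is not stated in the labels.

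Skin color in fish comes from pigment cells that arise from the neural crest. Black melanophores make melanin, red and yellow erythrophores and xanthophores store carotenoids and pteridines, and iridophores hold reflecting purine crystals. Carotenoids are fat-soluble and come from the diet, so red color depends on uptake, transport and storage together with lipid, and on the enzymes that modify or cleave them. Pigment granules move along microtubules and actin filaments, and their spread in the cell sets how strongly it is colored. Microphthalmia-associated transcription factor (Mitf) is a master regulator of melanocyte development and has close relatives among the pigment cell lineages of fish.

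Total expected counts, the estimated number of read pairs assigned to features, ranged over 15242020 to 20643139 in red, 14812893 to 25002494 in black and 13773868 to 23058887 in white skin. A count of 3 corresponded to 0.145 to 0.197 CPM (counts scaled to a fixed library total) in the red libraries, and it was taken as the floor of detection, for counting error only. The 10 most abundant features took 13.2% to 39.1% of all TPM in red, 8.01% to 58.7% in black and 8.17% to 26.6% in white skin. The median TPM used for scaling ranged over 1.13 to 3.12 in red, 1.73 to 3.17 in black and 2.82 to 3.28 in white skin. The study annotated 6 features to melanin biosynthetic process. At numbers 1 to 3 their summed scaled level was 0.186, 1.16 and 0.249 in red skin. It was 2.97, 20.5 and 1.96 in black skin and 0.312, 0.119 and 0.0463 in white skin. Black skin was thus highest at every number. The list comes from the study's own analysis of these libraries, so this is not an independent check of the labels.

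The members were features of low to moderate abundance. Their mean scaled level in red skin ranged over 0.256 to 19.7 with a median of 1.70, against medians of the means of 0.287 in black and 0.0357 in white skin. The lowest of the 6 same-number ratios of a member ranged over 2.00 to 4.55 with a median of 2.38. It was set against black skin in 16 members and against white skin in 5. In 12 of the 21 members all 3 red levels lay above all 6 black and white levels, a state that 0.536% of the 35480 features with enough red counts share. The rule used these levels, so nothing is read from that difference. The lowest red expected count of a member was at least 10.0 and at most 164, with a median of 22.1.

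**Figure D1:**
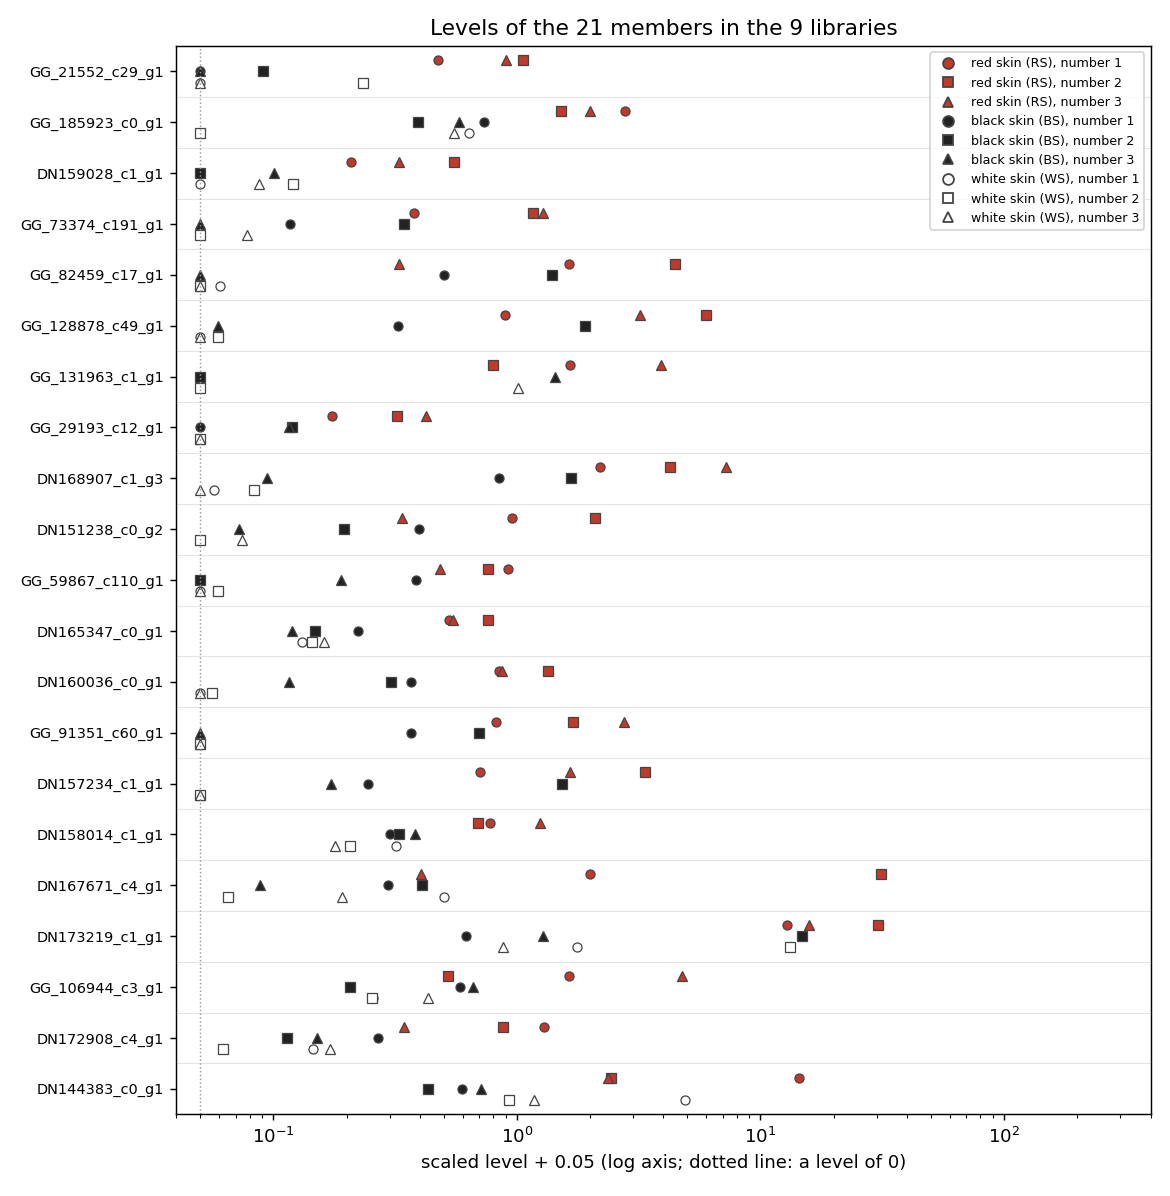
Scaled level plus 0.05 on a log axis for each of the 21 members (rows, ordered by lowest ratio) in the 9 libraries; circles, squares and triangles are library numbers 1, 2 and 3, and the fill gives the skin color. White points crowd at the dotted line of a level of 0 for many members, with 3 members at 0 in all 3 white libraries, while black points often lie between white and red.

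**Figure D2:**
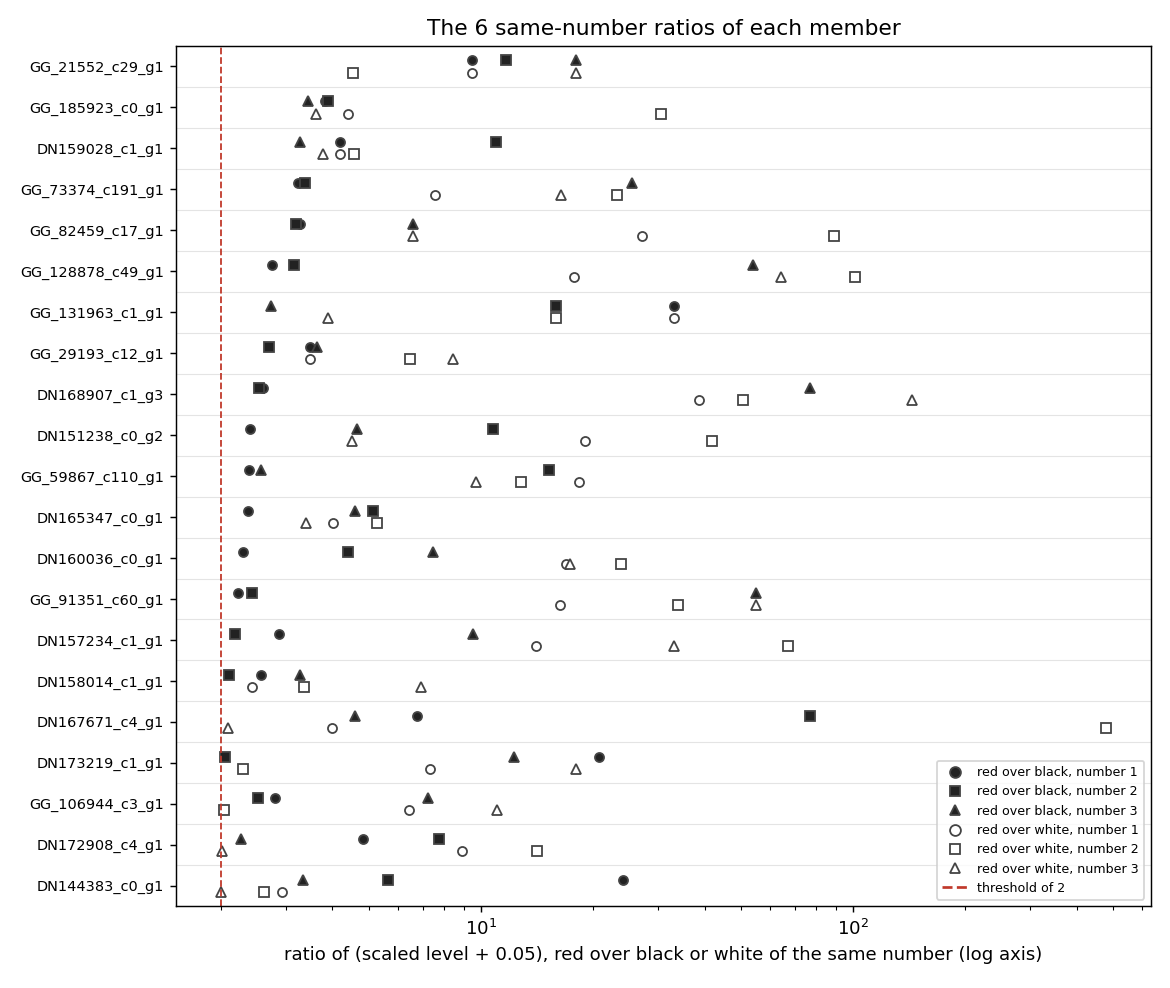
The 6 same-number ratios of each member, red over black (filled) and red over white (open), on a log axis, with the threshold of 2 as a dashed line. All points lie at or above the line by the rule, and the lowest ratio is 4.55 for GG_21552_c29_g1 at the top and 2.00 for DN144383_c0_g1 at the bottom.

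Of the 21 members, 9 carried a GO term, KEGG pathway or description in the lists that accompany the study, 12 did not, and 1 was listed as a long non-coding RNA (lncRNA). The annotated share was 42.9%, beside 0.854% of the 35480 features with enough red counts. The study's lists of mRNAs differentially expressed between these colors held 13 members, beside 72 of these features. The annotation and mRNA lists were made by the study in its own analysis of these same libraries and are held here in part. Their names are therefore background and not independent evidence of direction, and nothing is read from these shares.

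Pigment cell regulation was represented by 3 members. Features DN157234_c1_g1 and GG_59867_c110_g1 both carry melanocyte differentiation and Melanogenesis and belong to the KEGG ortholog group of Mitf. DN157234_c1_g1 had scaled levels of 0.655, 3.31 and 1.61 in red skin (numbers 1 to 3), against 0.196, 1.49 and 0.123 in black skin and 0 in all 3 white libraries. Red was highest at each number, but the red and black groups overlapped. The counts behind these levels were 41.2, 455 and 135 in red, 8.01, 210 and 19.8 in black and 0 in white skin. Against a floor of 3 counts over the 3 white libraries, DN157234_c1_g1 was at least 251-fold higher in red skin and at least 91.8-fold higher in black skin than in white skin. Both bounds rested mainly on number 2, without which they were 82.3-fold and 9.56-fold. GG_59867_c110_g1 had 0.867, 0.712 and 0.435 in red skin, against 0.335, 0 and 0.139 in black skin and 0, 0.00915 and 0 in white skin. All 3 red levels lay above the other 6, on counts of only 12.7, 30.9 and 12.9 in red skin.

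The other 2 features of the Mitf ortholog group were not members. GG_173596_c90_g1 had 0.195, 2.94 and 0.532 in red skin, against 0.218, 1.72 and 0.268 in black skin and 0, 0.00915 and 0.0185 in white skin, and its lowest ratio was 0.913. GG_152857_c1_g1 had 0, 0.865 and 0.993 in red skin, against 0, 0.208 and 0.287 in black skin and 0 in white skin. The highest white level among the 4 features of this group was thus 0.0185. How the assembly splits one gene or a pair of carp copies over these 4 features is unknown, and reads of close copies may be shared among them.

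GG_29193_c12_g1 is annotated to pigment granule dispersal, actin binding, myosin binding and Rab GTPase binding, terms for the coupling of granules to actin-based transport. It had 0.124, 0.272 and 0.372 in red skin, against 0, 0.0694 and 0.0662 in black skin and 0 in all 3 white libraries. Every red level exceeded every other level, although the lowest red count was 10.0. Against the same floor it was at least 59.4-fold higher in red skin and at least 11.3-fold higher in black skin than in white skin, over the 3 libraries together. The bounds were 33.2-fold and 5.16-fold without number 2 and 35.3-fold and 6.48-fold without number 3, and at number 1 black and white skin were both at 0. The other 3 features with this term missed both the minimum of 10 counts in all red libraries and the threshold of 2. At number 1, DN156458_c0_g1 and GG_103079_c0_g1 were at 0 in red skin and at 0.218 and 0.274 in black skin. Their lowest ratios were 0.187 and 0.154. DN156458_c0_g2 came closest, with 0.301, 0.394 and 0.743 in red skin, against 0.0559, 0.26 and 0.243 in black skin and 0 in white skin, and a lowest ratio of 1.43.

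**Figure D3:**
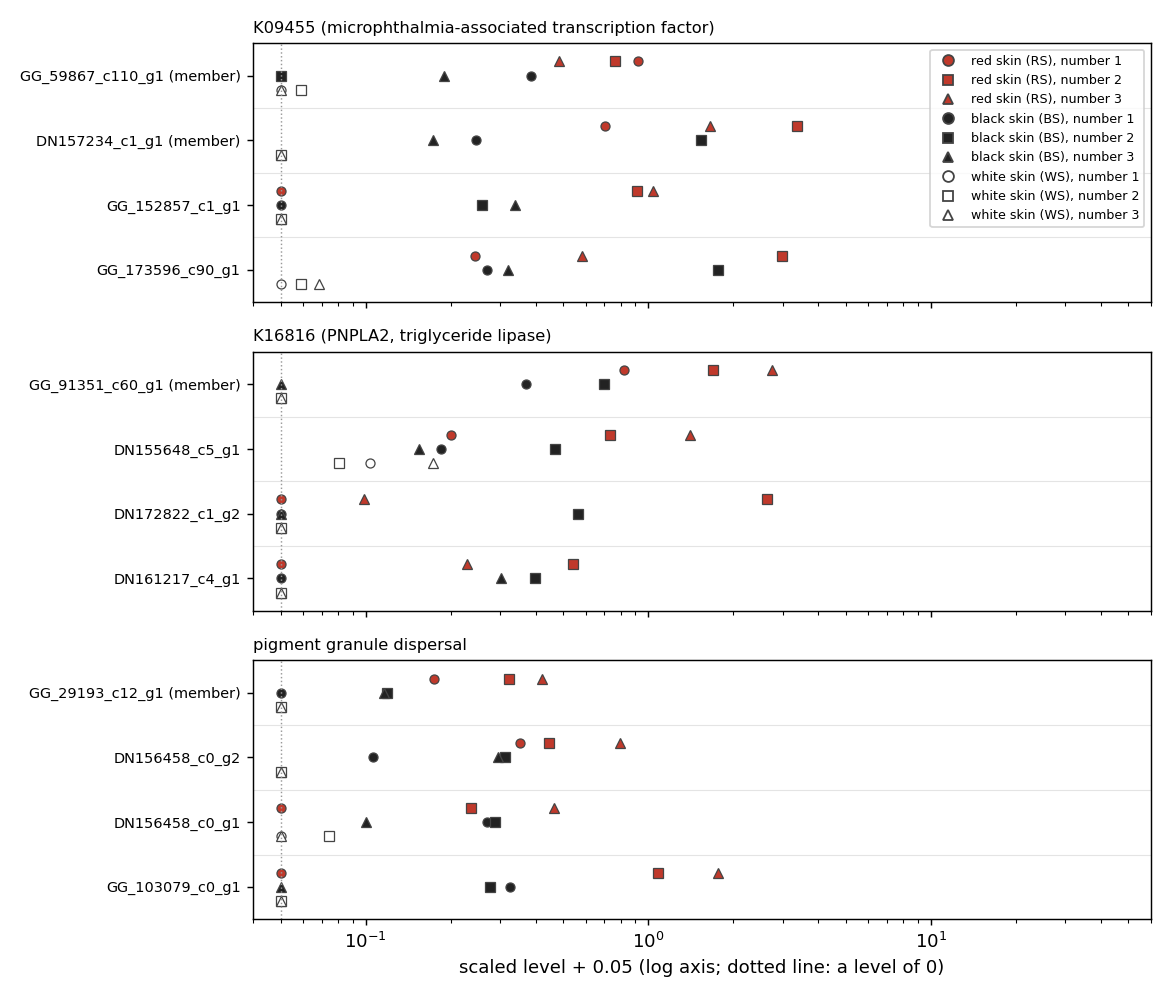
Scaled level plus 0.05 (log axis) in the 9 libraries for the 4 features of the Mitf ortholog group (K09455), the 4 of the PNPLA2 ortholog group (K16816) and the 4 annotated to pigment granule dispersal, members marked. White libraries sit at or near the line of a level of 0 in all 3 groups, and only 4 of the 12 features meet the rule.

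Lipid handling was represented by GG_91351_c60_g1, annotated to triglyceride lipase activity, lipid droplet and triglyceride catabolic process and placed in the KEGG ortholog group of PNPLA2. PNPLA2 is the adipose triglyceride lipase, which opens the breakdown of stored fat on lipid droplets. It had 0.77, 1.64 and 2.70 in red skin, against 0.318, 0.647 and 0 in black skin and 0 in all 3 white libraries. The lowest red level was 1.19 times the highest of the other 6. With 660 counts summed over red, 107 over black and 0 over white skin, it was at least 262-fold higher in red skin and at least 41.4-fold higher in black skin than in white skin. Without number 2 the bound for black skin was 7.58-fold, without number 3 that for red skin was 131-fold, and at number 3 black and white skin were both at 0. The other 3 features of the ortholog group each missed both the minimum of 10 counts in all red libraries and the threshold of 2. DN155648_c5_g1 had 0.15, 0.683 and 1.36 in red skin, against 0.134, 0.416 and 0.104 in black skin and 0.0532, 0.0305 and 0.123 in white skin, with a lowest ratio of 1.09.

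The lncRNA among the members, GG_73374_c191_g1, is named Ccr_lnc733741911 by the study, which lists a feature named Pnpla2 as its neighbor. The study also lists LOC733743521, which was at 0 in all red libraries. The names were matched to features by the digits of their identifiers. The lncRNA had 0.327, 1.12 and 1.23 in red skin, against 0.067, 0.295 and 0 in black skin and 0, 0 and 0.0278 in white skin. The lowest red level was 1.11 times the highest of the others. The Pnpla2 neighbor, GG_73374_c231_g1, had 0.549, 0.971 and 1.37 in red skin, against 0, 0.74 and 0 in black skin and 0 in all 3 white libraries. It was highest in red at each number but is not a member, because its lowest red count was 7.26 and its lowest ratio was 1.29. The assembly cluster of the lncRNA holds 266 features, of which 21 others had enough red counts, and the highest of their lowest ratios was 0.941. The strand of the counting is not given in the sources used here, so reads of overlapping transcripts could not be separated.

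Among the lists chosen for carotenoid and lipid biology, the 5 features annotated to beta-carotene 15,15'-monooxygenase activity, the enzyme that cleaves beta-carotene to retinal, held no member. Their summed scaled level was 2.22, 5.46 and 11.0 in red skin, against 1.08, 3.37 and 0.199 in black skin and 0.44, 0.116 and 0.253 in white skin. Red was highest at each number, but none of the 5 had 10 counts in all red libraries. GG_123121_c24_g1 came nearest the rule with 1.25, 1.85 and 5.19 in red skin, against 0.704, 0.185 and 0.0915 in black skin and 0.387, 0.11 and 0.157 in white skin, a lowest ratio of 1.72. The 3 features annotated to lipid storage held no member either, and their summed level was 7.55, 6.21 and 31.5 in red skin, against 3.91, 2.93 and 0.915 in black skin and 1.47, 0.299 and 0.722 in white skin. Red was highest at each number too in triglyceride catabolic process, triglyceride lipase activity, lipid droplet and Glycerolipid metabolism. These lists all include GG_91351_c60_g1, whose direction the rule fixed, and they are not independent of each other. Triglyceride lipase activity and lipid droplet hold the same 4 features, with 0.920, 5.39 and 4.29 in red skin. The 5 features of Glycerolipid metabolism had nearly the same sums there, 0.938, 5.49 and 4.30. The remaining lipid lists did not have red highest at every number. The 4 features of Fatty acid degradation had a summed level of 0.575, 0.423 and 1.28 in red skin, against 56.5, 1.44 and 7.51 in black skin and 0.355, 2.35 and 3.55 in white skin, and held no member. The 6 features of lipid homeostasis, which include GG_91351_c60_g1, had 0.92, 5.46 and 4.29 in red skin, against 30.6, 1.92 and 4.22 in black skin and 0.0532, 0.655 and 2.74 in white skin. Red was also below black or white skin at one or more numbers in the lists of Arachidonic acid metabolism, Linoleic acid metabolism and Fat digestion and absorption. The 2 features annotated to xanthophore differentiation had lowest ratios of 1.16 and 1.02, with enough counts in red skin. All lists in this paragraph come from the study's own analysis of these libraries. Their directions are therefore a description and not independent evidence.

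Signaling was represented by 3 members. GG_21552_c29_g1, annotated to semaphorin receptor activity and Axon guidance, had the highest lowest ratio of all. Semaphorin receptors guide migrating cells and axons. It had 0.425, 1.01 and 0.851 in red skin, against 0, 0.0405 and 0 in black skin and 0, 0.183 and 0 in white skin. All red levels exceeded the rest, the lowest by 2.32 times. Of 18 features with the semaphorin receptor term, it was the one member. None of the others had 10 counts in all 3 red libraries, so none of them could have met the rule.

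GG_185923_c0_g1 carries small GTPase mediated signal transduction, GTP binding and Circadian entrainment, and small GTPases act as molecular switches. It had 2.74, 1.47 and 1.95 in red skin, against 0.682, 0.341 and 0.53 in black skin and 0.585, 0 and 0.503 in white skin. It was one of the most even members within red skin, where the highest level was 1.86 times the lowest. Another 2 of the 9 features with this GTPase term were higher in red at each number without meeting the rule. These were DN158644_c0_g1, with 7.80, 4.85 and 4.94 in red skin, against 2.03, 1.83 and 1.19 in black skin and 2.50, 0.698 and 2.62 in white skin, and GG_186166_c0_g1, whose lowest ratio was 1.66. The remaining 6 had lowest ratios below 1.

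GG_106944_c3_g1 is annotated to the extracellular region, receptor binding and hormone-mediated signaling pathway. It had 1.59, 0.471 and 4.73 in red skin, against 0.536, 0.156 and 0.612 in black skin and 0.206, 0.204 and 0.383 in white skin. RS2 lay below BS1 and BS3, so the groups overlapped, and the highest red level was 10.0 times the lowest. Unlike the pigment and lipid members it was measured in every library, with 20.3 to 49.3 counts in white skin. Of the 4 features with the hormone term, DN166467_c1_g1 and GG_57821_c1_g1 were instead highest in white skin at each number. DN166467_c1_g1 had 21.3, 3.94 and 9.94 in white skin, against 2.73, 0 and 1.97 in red skin. GG_57821_c1_g1 had 3.32, 0.561 and 1.76 in white skin, against 1.26, 0 and 0.751 in red skin. The lowest ratio of DN153094_c3_g1 was 0.370.

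Oxidoreductase activity was the term of GG_128878_c49_g1 and DN160036_c0_g1, with no substrate named. GG_128878_c49_g1 had 0.841, 5.95 and 3.17 in red skin, against 0.274, 1.85 and 0.00946 in black skin and 0, 0.00915 and 0 in white skin. DN160036_c0_g1 had 0.796, 1.29 and 0.818 in red skin, against 0.318, 0.254 and 0.0662 in black skin and 0, 0.0061 and 0 in white skin. Both were near 0 in white skin, with 1.00 count each over its 3 libraries. DN160036_c0_g1 showed no overlap of red with the other colors and a highest red level only 1.62 times the lowest, whereas red and black levels overlapped in GG_128878_c49_g1.

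The members without annotation fell into different patterns. DN168907_c1_g3 was among the higher of them, with 2.15, 4.19 and 7.19 in red skin, against 0.793, 1.62 and 0.0442 in black skin and 0.00709, 0.0335 and 0 in white skin. GG_82459_c17_g1 had 1.59, 4.39 and 0.279 in red skin, against 0.453, 1.35 and 0 in black skin and 0.0106, 0 and 0 in white skin. In both, white skin was close to 0 and black skin number 3 was far below numbers 1 and 2. In GG_82459_c17_g1 the red level of number 3 was also the lowest of the 3, below BS1 and BS2.

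GG_131963_c1_g1 had 1.60, 0.747 and 3.87 in red skin, against 0, 0 and 1.39 in black skin and 0, 0 and 0.96 in white skin. It was thus not detected at this depth in black and white skin of numbers 1 and 2, and it was measured in all colors of number 3. DN159028_c1_g1 had 0.159, 0.5 and 0.279 in red skin, against 0, 0 and 0.0505 in black skin and 0, 0.0701 and 0.037 in white skin, with no overlap. DN165347_c0_g1 was the most even member within red skin, at 0.478, 0.712 and 0.498, against 0.173, 0.0983 and 0.0694 in black skin and 0.0816, 0.0945 and 0.111 in white skin. Its lowest red level was 2.76 times the highest of the other 6, the widest such gap among the members. DN158014_c1_g1 had 0.726, 0.641 and 1.19 in red skin, against 0.251, 0.277 and 0.331 in black skin and 0.27, 0.155 and 0.13 in white skin, again with no overlap.

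Some ratios were set by effective length more than by the number of read pairs. RSEM, the tool that estimated the levels, divides by the effective length of the transcripts it assigns the reads to, so a feature with several transcripts can gain TPM when reads are assigned to a shorter one. The effective length of a feature differed by more than 2 times between libraries in 8 of the 21 members (38.1%) and in 19.3% of the 35480 features with enough red counts. When TMM-normalized CPM took the place of TPM, with the same kind of scaling, 12 of the 21 members kept a lowest ratio of at least 2, a further 6 kept one between 1 and 2, and 3 had at least 1 ratio below 1.

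DN173219_c1_g1, the member with the highest levels, was one of these 3. Its scaled levels were 12.8, 30.4 and 15.7 in red skin, against 0.57, 14.8 and 1.23 in black skin and 1.71, 13.2 and 0.824 in white skin. Its expected counts were 22.1, 862 and 70.7 in red skin, against 17.2, 638 and 106 in black skin and 62.7, 953 and 54.3 in white skin, so counts did not separate red from the other colors. The effective length was 40.6, 182 and 51.8 bases in red skin, against 538, 376 and 714 in black skin and 467, 444 and 646 in white skin, over 21 assembled transcripts. The lowest ratio was 0.697 on counts.

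DN144383_c0_g1 had 14.4, 2.38 and 2.31 in red skin, against 0.547, 0.382 and 0.659 in black skin and 4.87, 0.878 and 1.13 in white skin. Its effective length lay between 29.5 and 64.9 bases in red skin and reached 249 in BS2, 160 in BS3 and 139 in WS3. In BS1, WS1 and WS2 it was 32.4, 39.0 and 40.0 bases, within the range of red skin. On counts the ratios of DN144383_c0_g1 at number 1 were 7.39 over black and 2.22 over white skin, and its lowest ratio was 0.825. DN167671_c4_g1 had 1.95, 31.3 and 0.353 in red skin, against 0.246, 0.358 and 0.0379 in black skin and 0.45, 0.0152 and 0.142 in white skin. The RS2 value stood on 11.6 counts and an effective length of 2.37 bases. On counts its lowest ratio was 0.868, and its red levels had the widest range of all members, 88.7 times.

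A smaller loss was seen in 6 members. On counts the lowest ratio was 1.93 for GG_59867_c110_g1, 1.57 for DN157234_c1_g1, 1.82 for DN151238_c0_g2, 1.72 for DN165347_c0_g1, 1.84 for DN158014_c1_g1 and 1.48 for DN172908_c4_g1. GG_59867_c110_g1 has 1 assembled transcript, and its lowest ratio on counts was that of RS3 over BS3. Its effective length was nearly the same in both, 342 and 339 bases. For DN157234_c1_g1 the lowest ratio was the one of number 2, where its effective length was 881 bases in RS2 and 1230 in BS2. DN151238_c0_g2 had 0.903, 2.05 and 0.286 in red skin, against 0.346, 0.145 and 0.0221 in black skin and 0, 0 and 0.0247 in white skin. Its effective length was 60.6 bases in RS2, against 277 in BS2.

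**Figure D4:**
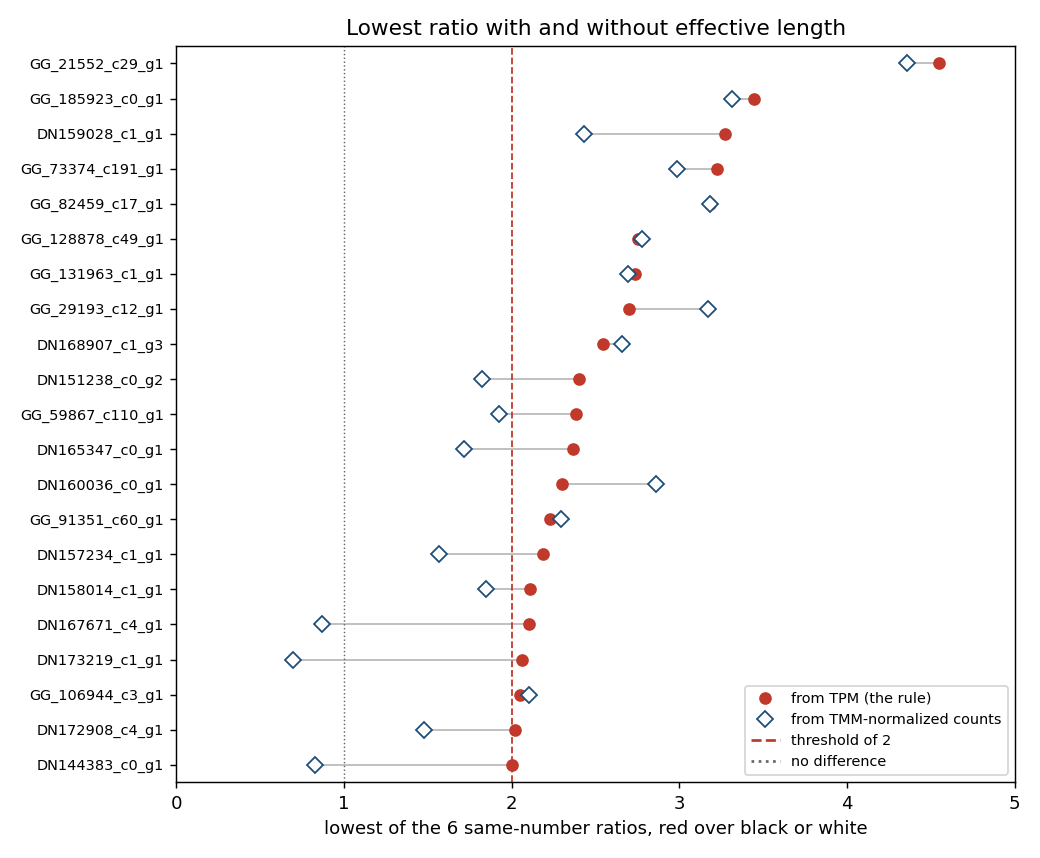
Lowest of the 6 same-number ratios of each member from TPM, as the rule uses it (red circles), and from TMM-normalized counts (open diamonds). The 3 diamonds left of 1 belong to DN173219_c1_g1, DN144383_c0_g1 and DN167671_c4_g1, and 12 of the 21 diamonds lie right of the threshold of 2.

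The members just inside the threshold were GG_106944_c3_g1, DN172908_c4_g1 and DN144383_c0_g1, with lowest ratios of 2.05, 2.02 and 2.00. DN172908_c4_g1 had 1.25, 0.83 and 0.294 in red skin, against 0.218, 0.0636 and 0.101 in black skin and 0.0957, 0.0122 and 0.12 in white skin. The features just outside were GG_131953_c6_g1 at 1.998, GG_160586_c3_g1 at 1.987 and DN162329_c0_g1 at 1.979. The last had 0.637, 3.14 and 4.02 in red skin, against 0.196, 1.56 and 0 in black skin and 0.00709, 0 and 0.0123 in white skin.

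Black skin against white skin is the comparison that the choice of members left free, since the rule compared red with each of them. Across all features, edgeR's quasi-likelihood test on the 6 black and white libraries tested 68812 features and called none (0.0%), a call being an FDR no greater than 0.05 together with a 2-fold or larger change in either direction. An unadjusted p under 0.05 was reached by 0.381% of the features. Only 6 of the 21 members passed the filter on low counts, 4 of them higher in black skin, with log2 fold changes between -0.72 and 0.73, standard errors between 0.64 and 1.37 and unadjusted p between 0.345 and 0.919. None of the 6 was under 0.05, and with the library number as a block none was either, beside 1.98% of the features. With no filter on low counts 5 members were called, all higher in black skin (DN157234_c1_g1, DN168907_c1_g3, GG_128878_c49_g1, GG_82459_c17_g1 and GG_91351_c60_g1), beside 0.134% of 290342 features. The members were chosen for their counts in red skin, so nothing is read from that difference in share.

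The remaining 15 members were too low in black and white skin for that filter. With all 9 libraries in one fit all 21 were tested, the 15 because they passed the filter through the red libraries in which they were chosen to be high. An unadjusted p under 0.05 with black skin higher, found for 9 members in that fit (all features: 0.384%) and for 8 with the library number as a block, a setting added after the data were seen (all features: 1.11%), is therefore a description and supports no difference between black and white skin. Of the 21, 3 were at 0 throughout white skin (DN157234_c1_g1, GG_91351_c60_g1 and GG_29193_c12_g1), and GG_59867_c110_g1, GG_128878_c49_g1, DN160036_c0_g1, GG_82459_c17_g1 and DN151238_c0_g2 had 0.5 to 1 counts summed over its 3 libraries.

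In scaled levels, the mean was higher in black than in white skin in 18 of the 21 members. The share of all features for this count was not computed. Black lay above white at all 3 numbers in 5 members (23.8%), beside 11.3% of the features with enough red counts, and below it at all 3 numbers in 1 member (4.76%), beside 13.8%. All 3 black levels exceeded all 3 white levels in 4 members, beside 1.56% of the features. The members were chosen by their red levels against both colors, so nothing is read from these counts. Values of single members went either way, as in GG_21552_c29_g1, at 0, 0.0405 and 0 in black skin against 0, 0.183 and 0 in white skin, and DN144383_c0_g1, at 0.547, 0.382 and 0.659 in black skin against 4.87, 0.878 and 1.13 in white skin.

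**Figure D5:**
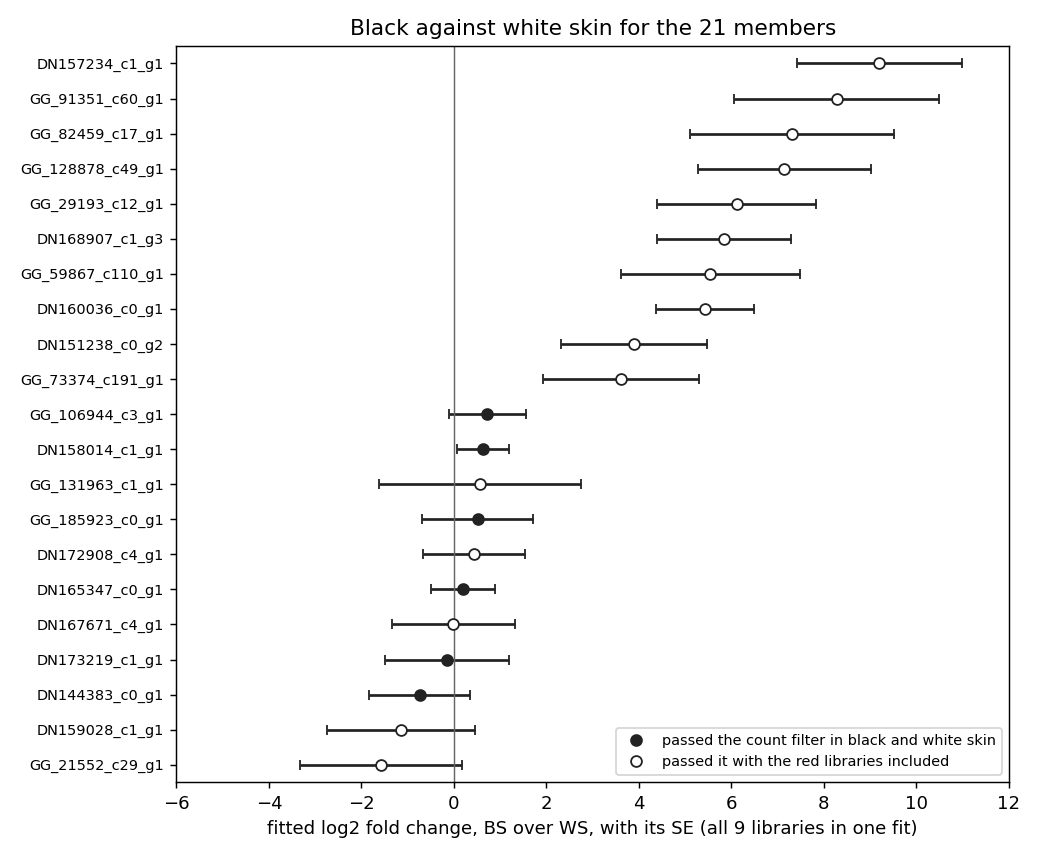
Fitted log2 fold change of black over white skin with its standard error for the 21 members, from edgeR's quasi-likelihood fit of all 9 libraries; filled points are the 6 members that passed the count filter in black and white skin, open points passed it only with the red libraries included. The 6 filled points lie close to 0, between -0.72 and 0.73 in the fit of black and white libraries alone; values of members at 0 in white skin depend on the prior count of the fit and are not bounds.

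The fits of red against the other colors are given as sizes, since the rule used the same libraries. In red against black skin all 21 members were tested and had positive log2 fold changes, with a median of 2.13 and a median standard error of 1.18, against a median of -0.02 over all 65727 features. In red against white skin 20 members were tested, 19 with positive values and DN173219_c1_g1 at -0.11 with a standard error of 1.23. The median was 3.30, also with members at 0 in white skin set to their lower bounds, but 4.64 with the library number as a block and 7.33 without number 3. The members' own p-values are not counted here, since the rule used these libraries. Over all features, edgeR called none of 65727 in red against black skin (0.0%) and none of 66740 in red against white skin (0.0%), where DESeq2 called 0.0502% and 0.0869%. With no filter on low counts edgeR called 355 of 285309 features against black and 346 of 279939 against white skin. An unadjusted p under 0.05 with red higher was reached by 0.0959% against black and 0.178% against white skin, and by 0.82% and 0.65% with the library number as a block. Both comparisons share the red libraries. Within them, GG_21552_c29_g1 had a log2 fold change of 5.09 ± 1.40 (SE) over black and 3.50 ± 1.54 over white skin (8.28 and 8.29 without number 2, values that depend on the prior count of the fit, since numbers 1 and 3 were at 0 in both colors), GG_185923_c0_g1 had 2.00 ± 0.56 over black and 2.52 ± 1.34 over white skin, and GG_106944_c3_g1 had 2.39 ± 0.96 over black and 3.11 ± 0.88 over white skin.

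The members came from 21 different assembly clusters. In 9 of these, another feature had enough red counts, and in 2, those of GG_185923_c0_g1 and DN158014_c1_g1, the other feature was also higher in red at each number, with lowest ratios of 1.79 and 1.67. The mean transcript length had a median of 1130 bases in the members and 1414 in the 35480 features with enough red counts. A single assembled transcript was held by 33.3% of the members and 29.6% of these features, and 47.6% against 56.0% came from genome-guided assembly. No member had the same counts as another feature. The highest red level was a median of 3.51 times the lowest in the members and 2.64 times in all these features.

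The same rule found 33 features for black skin and 39 for white skin, which is 0.0830% and 0.0848% of the features with enough counts in those colors, beside 0.0648% for red before the 2 were left out. Over all 35478 such features other than the 2, the lowest red ratio had a median of 0.638 and was above 1 in 4.61%. The number of features found for red was thus the lowest of the 3 colors; the difference between colors was not tested.

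Markers of other cell types were measured in the same libraries. The 15 features annotated to the myosin complex had a summed scaled level of 2.32 to 295 in red, 3.16 to 1434 in black and 6.46 to 77.5 in white skin. The 18 features annotated to collagen trimer ranged over 5.50 to 11.1 in red, 3.66 to 10.7 in black and 4.98 to 11.2 in white skin. The 12 annotated to melanocyte differentiation, including both Mitf members, had 3.85, 21.4 and 10.5 in red skin, against 2.02, 13.9 and 2.27 in black skin and 1.07, 3.14 and 1.09 in white skin. The 8 annotated to melanosome had 0.938, 5.02 and 2.62 in red skin, against 7.10, 43.3 and 5.72 in black skin and 1.15, 0.930 and 0.540 in white skin. The 1 feature annotated to oxygen carrier activity was at 0 in all red and black libraries. These marker lists also come from the study's own analysis of these libraries. The part of these cells in the members' levels was not tested.

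In edgeR's quasi-likelihood test, 9 of the 10 tested features of melanocyte differentiation had a positive log2 fold change in red against black skin. None of them was under an unadjusted p of 0.05 without a block and 4 were with the library number as a block, all positive, beside 0.0959% and 0.82% of all features. Against white skin, 8 of 8 were positive, 7 of them under 0.05 without the block and 8 with it, beside 0.178% and 0.65%. The list holds both Mitf members, whose direction the rule fixed, and it comes from the study's own analysis of these libraries. Both members are among the features under 0.05 against white skin, without and with the block. DN157234_c1_g1 is also 1 of the 4 against black skin with the block. These counts are therefore a description. Of the 11 features of melanosome organization 8 were tested in red against black skin, all with negative values, 3 under 0.05 without the block and 6 with it, beside 0.233% and 1.08% of all features in the negative direction. Against white skin 2 of the 11 were tested, 1 positive and 1 negative, and neither was under 0.05. Of the 14 Melanogenesis features, 9 were tested in red against black skin, 3 of them under 0.05 in the positive and 2 in the negative direction without the block, and 4 and 2 with it, beside 0.0959% positive and 0.233% negative without the block and 0.82% and 1.08% with it. This list also holds both Mitf members, and DN157234_c1_g1 is 1 of the 4 positive features with the block. Against white skin 8 Melanogenesis features were tested, 5 positive and 3 negative. Under 0.05 were 4 positive and 0 negative without the block, and 4 and 1 with it, both Mitf members among the positive. All features reached 0.178% and 0.228% without the block, and 0.65% and 0.981% with it. The summed level of the 14 was 7.91, 10.3 and 8.31 in red and 25.7, 5.06 and 12.3 in white skin. Of the 5 features of triglyceride catabolic process, 4 were tested in red against black skin and all had positive values, none under 0.05 without the block and 1 with it, beside 0.0959% and 0.82%. One of the 4 is the member GG_91351_c60_g1, whose positive sign the rule fixed. In these fits, which filter on low counts, edgeR called no feature of the 4 lists. With no filter it called 346 of 279939 features in red against white skin. These include 8 of the 21 members, DN157234_c1_g1 and GG_91351_c60_g1 among them. In red against black skin the fit with no filter called 355 of 285309 features and 0 of the 21 members. The rule used both comparisons to choose the members, so these numbers of calls support nothing.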

How the data were processed

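Poly(A) RNA-seq tables of 9 libraries were used, 3 each of red, black and white skin, grouped by their labels. Per the labels the authors used TopHat2 2.0.10, RSEM 1.2.21 and edgeR 3.22.3, and their methods name Trinity assembly and CD-HIT clustering. The deposited expected counts are RSEM estimates per assembled gene, not normalized, and were rounded for the tests. The deposited TPM are length-corrected shares of each library. The members, gene lists and tests were chosen with earlier results of these data known. The scaled level, the pseudocount of 0.05, the minimum of 10 counts and the threshold of 2 follow the rule in the opening.

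Pairs of colors were compared with edgeR 4.0.16 in R 4.3.3 (filterByExpr with a minimum count of 10, TMM, glmQLFit and glmQLFTest without a block, Benjamini-Hochberg adjustment over all features tested). A call needed an FDR no greater than 0.05 and a log2 fold change of 1 or more in either direction. Standard errors are the log2 fold change over the root of its F statistic. With 3 libraries a group, p-values measure the spread between these libraries. DESeq2 1.42.0 was an alternative. Tables and plots used Python 3.11.15, pandas 2.3.3 and matplotlib 3.10.9. The scripts were tested on simulated data.

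Libraries with the same number resembled each other. Over 78848 features, deviations from the group means correlated at 0.533 to 0.797 in the 9 pairs with the same number and at -0.595 to 0.022 in the 18 pairs with different numbers. Deviations within a color sum to 0, so these ranges are not independent. Estimated fragment length was 356, 360 and 347 bases in RS2, BS2 and WS2, against 284 to 295 in numbers 1 and 3. What a shared number stands for was not tested.

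Members named in the text are those with the 10 largest lowest ratios, the 5 highest mean red levels, an annotation or an lncRNA entry, the 3 inside and 3 features outside the threshold, the 5 smallest p of black against white skin with the block, and the 5 widest and 5 narrowest ranges within red skin, which together are all members. The Trinity identifiers are given without their common prefix. None of them matched the RefSeq gene table used, so no sequence is shown.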

Additional observations from a re-analysis of the deposited data

How the results depend on the processing

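The number of members, 21, moved with nearly every part of the rule. It was 33 with a pseudocount of 0.01 and 9 with 0.2, 5 at a threshold of 3 and 92 at 1.5, 11 with at least 20 counts and 225 with no minimum count, 12 on TPM as deposited (7 of them shared), 4 with numbers ignored, and 192 to 307 without one of the 3 library numbers (307 without number 1). On TMM-normalized counts it was 19, of which 12 were shared. DN167671_c4_g1, DN144383_c0_g1, DN172908_c4_g1 and GG_59867_c110_g1 were kept by none of the 6 alternatives that dropped members.

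For black against white skin, the fits called 43 features with DESeq2 and 389 with no filter, and none of 68812 with the library number as a replicate block. Members with an unadjusted p under 0.05 numbered 0 with the block (all features: 1.98%) and 8 with no filter (1.56%), 5 of these called. With all 9 libraries in one fit they numbered 9 (0.640%), where 15 passed the filter only through red skin. In that fit with the replicate block they numbered 8 (2.72%). They numbered 2 without number 1 (0.476%), 0 without number 2 (1.64%) and 6 without number 3 (0.507%). The members were chosen by their red levels, so nothing is read from these counts. Without one number, the log2 fold change of DN144383_c0_g1 ranged over -1.39 to 0.11 and that of DN165347_c0_g1 over -0.21 to 0.41, both reversed without number 1 and neither called. The median log2 fold change of members in red against white skin was 4.64 with the block, 5.48 with all 9 libraries and the block, and 3.30 to 7.33 without one number, highest without number 3. Of the members' fitted values over all settings, 209 of 209 were above 0 in red against black skin, and in red against white skin 191 were above and 9 below 0, directions that the choice of members largely fixes. On TPM as deposited, the median log2 ratio of a red library over the black or white library of the same number, across 29750 common features, lay between -1.26 and 0.86. Members rested on as few as 10 counts, which limits each single ratio.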
